A study of Bos taurus with 9 samples.

Results

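The transcripts examined here encode the machinery with which a cell senses interferon, together with the interferons known from epithelia. They were chosen by gene symbol: the receptor subunits IFNAR1, IFNAR2, IFNGR1, IFNGR2, IFNLR1 and IL10RB, the receptor kinases JAK1 and TYK2, and the interferon genes IFNE and IFNK. All 10 symbols were found among the 30641 genes of the count table, and 9 had enough reads to be tested. IFNK did not. RNA was sequenced from 9 libraries of bovine cells labelled as endometrial epithelial cells, 3 in each of 3 groups. The untreated control cells were given no reagent and no mRNA. The reagent-only group (reagent alone in the plots) received the transfection reagent jetMESSENGER 24 hours after seeding, and the DPPA3 mRNA group received at that time 500 ng of in vitro made mRNA of DPPA3, an embryonic gene, with the same reagent. A control mRNA was not among the groups, so the DPPA3 sequence and the presence of an in vitro made RNA cannot be told apart. The time from transfection to harvest and the source animals are not given in the labels, and nothing there says that replicates were separate cultures, so each p-value reflects the spread among these libraries alone, and that spread may be technical.

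Interferons are secreted proteins that act through paired receptor chains. Type I interferons, to which interferon epsilon (IFNE), interferon kappa (IFNK) and the ruminant pregnancy signal interferon tau belong, bind IFNAR1 and IFNAR2. Interferon gamma binds IFNGR1 and is signalled through IFNGR2, and type III interferons bind IFNLR1 paired with IL10RB, a chain that also serves interleukin-10 and its relatives. JAK1 and TYK2 are the tyrosine kinases attached to the type I and type III receptors, and JAK1 also serves the interferon gamma receptor. They phosphorylate STAT proteins, which switch on interferon-stimulated genes. In cattle the endometrium is the tissue that receives interferon tau from the conceptus, and IFNE is known from the epithelium of the female reproductive tract.

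Total counts ran from 3890134 in reagent-only replicate 1 to 13258036 in DPPA3 mRNA replicate 1. The labels were checked with DPPA3, which had 126334 to 213790 counts in the transfected libraries and 0 to 2 in the other libraries. Of 8 epithelial markers, the keratins KRT8, KRT18, KRT19 and KRT7 and the adhesion gene CDH1 were present in every library, but EPCAM, CLDN4 and the basal keratin KRT5 had 37, 52 and 32 counts over all libraries. The stromal markers were also present in every group, with a summed level of 27872 to 46312 CPM (reads scaled to library size in the usual unit, with TMM factors), against 8573 to 11034 CPM for the epithelial list. The collagen gene COL1A2 alone averaged 13630 CPM. None of these levels is scaled for transcript length, so the sums of the lists do not measure shares of cells. Of the epithelial markers 5 of 8 were thus present throughout and 3 nearly absent, and stromal genes were abundant. The part of stromal cells in the results below was not tested, and in bulk RNA fewer cells of a type and less RNA per cell cannot be told apart. Endothelial markers summed to at most 12.2 CPM and immune markers to at most 8.16 CPM, with PTPRC at 0 in all libraries. Untreated control replicate 1 stood apart from the rest: 1 gene, LOC112442408, took 10.98% of its counts, against 3.05% to 4.36% in the other libraries. It held the highest or the lowest of the 9 values in 60.6% of all tested genes and in 7 of the 9 tested receptor, kinase and interferon genes. Results that rest on it are given with and without it.

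Transcripts of every receptor subunit and of both kinases were found in all 9 libraries, from 39 counts (IFNLR1 in reagent-only replicate 1) up to 2871 (JAK1 in DPPA3 mRNA replicate 1). The libraries thus held RNA for all chains of the type I, type II and type III receptors under each condition. None of the 9 tested genes was called in any of the 3 comparisons by edgeR's quasi-likelihood test (Benjamini-Hochberg adjusted p under 0.05 over 14874 genes). The count was also 0 of 9 at an unadjusted p under 0.05 in each comparison. Over all tested genes, the shares called were 0.00672% between DPPA3 mRNA and reagent only, 0.0134% between DPPA3 mRNA and the untreated controls and 0% between reagent only and the untreated controls. The first 2 shares are 1 and 2 genes, and no gene was called there when the DPPA3 gene itself was left out. An unadjusted p under 0.05 was found for 1.67%, 3.91% and 10.2% of all tested genes. A count of 0 among 9 genes is therefore near that background. No such call was made with DESeq2 or limma voom, nor under any other alternative. At an unadjusted p under 0.05, some of these genes passed under alternatives: for reagent only against untreated control these were IFNAR1 and IFNGR1 with a replicate block (19.6% of all genes) and without untreated control replicate 2 (27.1%), IFNAR1 with no filter (11.4%), IFNGR1 with voom (26.2%) and IFNAR2 without reagent-only replicate 2 (5.31%). With DPPA3 mRNA, IFNGR1 did so against untreated control with voom (16.4%) and without untreated control replicate 2 (18.7%), and IFNAR2 against reagent only without reagent-only replicate 2 (1.51%).

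**Figure D1:**
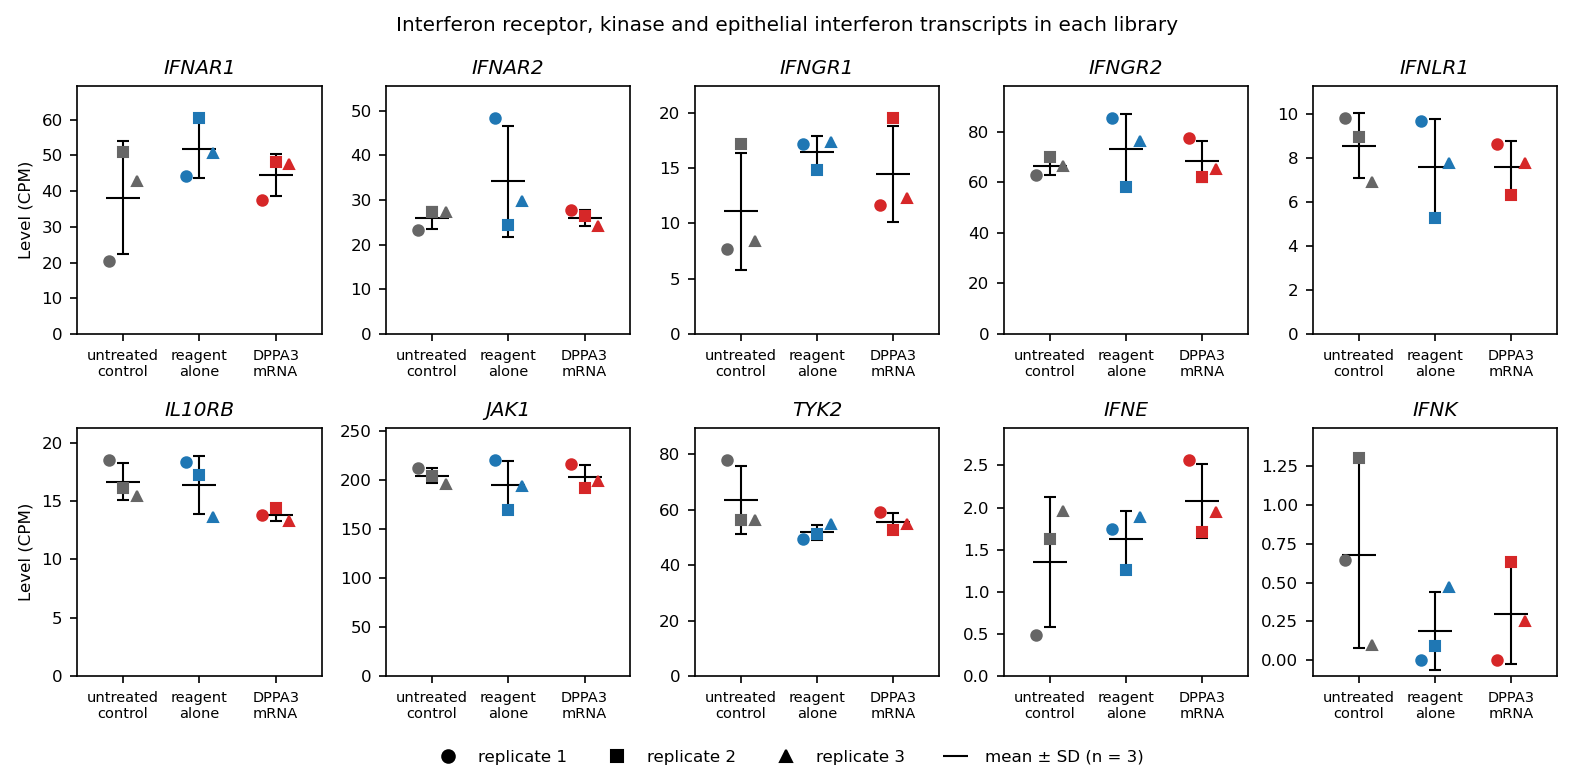
Level of each transcript (CPM, linear axes that start at 0 or just below it) in the 3 libraries of each group; symbols mark the replicate number and bars the mean ± SD (n = 3). Groups that do not overlap are seen only for IL10RB (DPPA3 mRNA below untreated control) and TYK2 (reagent alone below untreated control), JAK1 stays between 169 and 220 CPM, and untreated control replicate 1 is the lowest library for IFNAR1 at 20.4 CPM and the highest for TYK2 at 77.9 CPM.

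For the type I receptor, IFNAR1 measured 20.4, 51.0 and 42.9 CPM in untreated control replicates 1 to 3. It measured 44.3, 60.4 and 50.7 CPM in reagent-only replicates 1 to 3, and 37.7, 48.1 and 47.6 CPM in DPPA3 mRNA replicates 1 to 3. The groups overlapped, and the untreated control group held both the lowest library of the series and one above 2 of the reagent-only libraries. IFNAR1, the chain that carries TYK2, had a log2 fold change of -0.23 for DPPA3 mRNA against reagent only (SE 0.27, edgeR adjusted p 0.9998, 95% interval -0.81 to 0.36). Against untreated control the log2 fold change was 0.21 for DPPA3 mRNA (SE 0.27, edgeR adjusted p 0.87) and 0.44 for reagent only (SE 0.27, edgeR adjusted p 0.50). These last values became -0.07 and 0.16 when untreated control replicate 1 was left out, and 0.48 and 0.70 when untreated control replicate 2 was.

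IFNAR2, the high-affinity chain that carries JAK1, measured 23.2, 27.4 and 27.2 CPM in the untreated controls and 27.6, 26.3 and 24.1 CPM with DPPA3 mRNA, replicates 1 to 3 in each. In reagent-only replicates 1 to 3 it measured 48.2, 24.5 and 29.7 CPM. The high value of reagent-only replicate 1, the library with the fewest counts, rested on 194 reads. The mean with DPPA3 mRNA was 26.0 ± 1.80 CPM (SD, n = 3), against 25.9 ± 2.38 CPM in the untreated controls, a log2 fold change of 0.0033 (95% interval -0.51 to 0.52, edgeR adjusted p 0.998). The difference between DPPA3 mRNA and reagent only was -0.38 on the log2 scale (SE 0.24, edgeR adjusted p 0.9998). Against untreated control the value for reagent only was 0.38 (95% interval -0.14 to 0.90, edgeR adjusted p 0.50). Without reagent-only replicate 1 these last values became -0.06 and 0.07.

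Among the receptor chains, the ligand-binding chain for interferon gamma had the widest spread, with a coefficient of variation of 30.0% over the 9 libraries. IFNGR1 measured 7.72, 17.2 and 8.40 CPM in untreated control replicates 1 to 3. With reagent only it measured 17.2, 14.8 and 17.4 CPM, and with DPPA3 mRNA 11.7, 19.5 and 12.3 CPM, replicates 1 to 3 in each. In the untreated control group and in the DPPA3 mRNA group replicate 2 was the high library, while the 3 reagent-only libraries lay close together. The log2 fold change of DPPA3 mRNA over reagent only was -0.18 (SE 0.32, edgeR adjusted p 0.9998). Over the untreated controls it was 0.37 with DPPA3 mRNA (SE 0.32, edgeR adjusted p 0.85) and 0.56 with reagent only (SE 0.32, edgeR adjusted p 0.48). DPPA3 mRNA was higher than the untreated control of the same replicate number in each of the 3 pairs, and with the replicate block its value was 0.41 (edgeR adjusted p 0.59). Its lowest value over the alternatives was 0.10, without DPPA3 mRNA replicate 2, and its highest 0.84, without untreated control replicate 2 (unadjusted p 0.012, edgeR adjusted p 0.19). The value for reagent only ranged from 0.37 without untreated control replicate 1 to 1.02 without untreated control replicate 2, and its adjusted p reached 0.065 with limma voom, which still missed the threshold. IFNGR2, the signalling chain, was steadier, at 63.1, 69.9 and 66.5 CPM in the untreated controls, 85.3, 58.3 and 76.2 CPM with reagent only and 77.6, 62.0 and 65.4 CPM with DPPA3 mRNA, replicates 1 to 3 in each. Its groups overlapped in every comparison, with log2 fold changes between -0.10 and 0.13.

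The type III receptor pairs a chain found mainly in epithelia with a chain found in most cells. IFNLR1, the specific chain, measured 9.82, 8.97 and 6.93 CPM in untreated control replicates 1 to 3. It measured 9.70, 5.29 and 7.79 CPM with reagent only and 8.66, 6.31 and 7.80 CPM with DPPA3 mRNA, replicates 1 to 3 in each. The means of the reagent only and DPPA3 mRNA groups were both 7.59 CPM (SD 2.21 and 1.19, n = 3), and the log2 fold change between them was 0.03 (95% interval -0.62 to 0.67, edgeR adjusted p 0.9998). The interval reaches past 1.5-fold in either direction. Against untreated control the log2 fold change was -0.17 with DPPA3 mRNA and -0.20 with reagent only, and the groups overlapped.

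IL10RB, the shared chain, measured 18.5, 16.1 and 15.4 CPM in the untreated controls and 18.4, 17.2 and 13.6 CPM with reagent only, replicates 1 to 3 in each. In DPPA3 mRNA replicates 1 to 3 it measured 13.8, 14.4 and 13.3 CPM. Each transfected library thus lay below each untreated control library, the 1 case of non-overlapping groups among the 9 genes in that comparison, where 3.86% of all tested genes were lower without overlap and 4.24% higher (8.1% in all). The log2 fold change against untreated control was -0.27 (SE 0.21, 95% interval -0.73 to 0.19, edgeR adjusted p 0.85), and against reagent only it was -0.24 (SE 0.21, adjusted p 0.9998). The value against untreated control kept its sign in every alternative tried, from -0.32 to -0.18, and passed the threshold in none.

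JAK1, the kinase that all of these receptors use, varied least of the 9 genes and had the most counts, 884 to 2871 per library. It measured 212, 204 and 196 CPM in untreated control replicates 1 to 3, 220, 169 and 194 CPM with reagent only and 216, 192 and 199 CPM with DPPA3 mRNA, replicates 1 to 3 in each. Its coefficient of variation over the 9 libraries was 7.68%, against 12.6% for IFNGR2, 13.0% for IL10RB and 14.6% for TYK2. The middle 50% of the 11047 tested genes with a mean of at least 5 CPM lay between 14.6% and 27.8%. Counting noise shrinks as counts rise, and this background was not matched for level, so part of the ranking may reflect read depth. The log2 fold change of DPPA3 mRNA was 0.06 over reagent only (95% interval -0.25 to 0.37) and -0.01 over the untreated controls (-0.32 to 0.29), and that of reagent only over the untreated controls was -0.07 (-0.38 to 0.23). These intervals all lay within 1.5-fold in either direction. In RefSeq's assembly ARS-UCD2.0 the span of JAK1 overlaps RAVER2, IFNE overlaps MIR31, and IFNAR1 and IFNGR2 each overlap a non-coding gene, so any reads they share are uncertain.

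TYK2, the partner kinase, measured 77.9, 56.4 and 56.4 CPM in untreated control replicates 1 to 3. With reagent only it measured 49.5, 51.3 and 54.8 CPM, and with DPPA3 mRNA 59.3, 52.9 and 54.9 CPM, replicates 1 to 3 in each. Every reagent-only library lay below every untreated control library, the 1 case among the 9 genes in that comparison, where 7.21% of all tested genes were lower without overlap and 6.92% higher (14.1% in all). Between DPPA3 mRNA and reagent only 0 of the 9 genes had groups that did not overlap, while 4.91% of all tested genes were higher and 3.99% lower without overlap (8.9% in all). The TYK2 log2 fold change for reagent only against untreated control was -0.29 (SE 0.17, 95% interval -0.66 to 0.08, edgeR adjusted p 0.48), and -0.11 without untreated control replicate 1. With DPPA3 mRNA it was -0.19 against untreated control (-0.01 without that library) and 0.10 against reagent only (SE 0.17, edgeR adjusted p 0.9998).

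**Figure D2:**
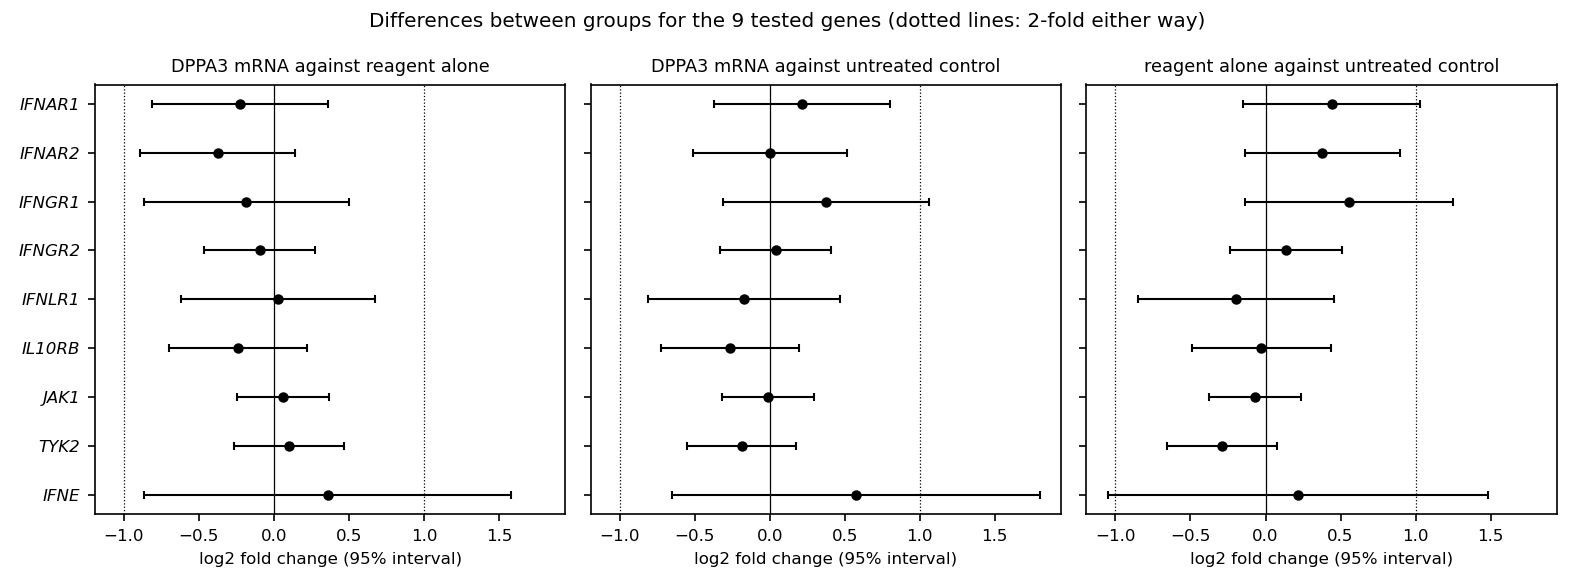
Log2 fold change of the 9 tested genes in the 3 comparisons, with 95% intervals from edgeR's quasi-likelihood fit; dotted lines mark 2-fold either way. All intervals include 0, those of JAK1 are the narrowest, and those of IFNE are the widest, from -0.87 to 1.58 for DPPA3 mRNA against reagent only.

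The intervals show how large a difference the data still allow. Between DPPA3 mRNA and reagent only, 8 of the 9 genes had a 95% interval within 2-fold either way and 3 (IFNGR2, JAK1 and TYK2) within 1.5-fold. Against untreated control 7 lay within 2-fold for DPPA3 mRNA and 6 for reagent only. The median log2 fold change of the 9 genes was -0.10 between DPPA3 mRNA and reagent only, 0.0033 between DPPA3 mRNA and the untreated controls and 0.13 between reagent only and the untreated controls. Over all tested genes these medians were 0.0027, 0.0017 and -0.0099. The last 2 of these use the same 3 untreated libraries, and the first 2 the same DPPA3 mRNA libraries. In the median absolute log2 fold change, 0.18 for the 9 genes stood beside 0.16 for all tested genes in the first comparison, 0.19 beside 0.23 in the second and 0.22 beside 0.30 in the third.

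The balance between the paired transcripts was read as the ratio of their counts within a library, which does not depend on library scaling. The log2 ratio of JAK1 to TYK2 was 1.86 in each of the 3 DPPA3 mRNA libraries, 1.44, 1.85 and 1.80 in untreated control replicates 1 to 3 and 2.15, 1.72 and 1.82 in reagent-only replicates 1 to 3. All transfected libraries lay above the untreated controls by a mean of 0.16 (two-sided exact permutation test, p = 0.1, the smallest that 3 against 3 allows; adjusted p 0.87 over 12 tests). Without untreated control replicate 1 the difference was 0.03. The log2 ratio of IFNAR1 to IFNAR2 ran from -0.18 to 0.90 in the untreated controls, from -0.12 to 1.30 with reagent only and from 0.45 to 0.98 with DPPA3 mRNA. Replicate 1 was the lowest library in each group. None of the 12 tests, over 4 pairs of genes and 3 comparisons, had an exact p under 0.1, and all adjusted p were 0.87 or higher.

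The interferon genes themselves had few or no counts. IFNE had 3, 15 and 20 counts in untreated control replicates 1 to 3, 7, 14 and 24 with reagent only and 34, 19 and 23 with DPPA3 mRNA. In CPM this was 0.48, 1.62 and 1.95, then 1.74, 1.26 and 1.89, then 2.56, 1.71 and 1.95. Reads of IFNE were thus found in all 9 libraries, and untreated control replicate 1 was the low one. The log2 fold change was 0.36 for DPPA3 mRNA against reagent only (SE 0.57, 95% interval -0.87 to 1.58, edgeR adjusted p 0.9998) and 0.57 against untreated control (SE 0.57, adjusted p 0.85). The latter was 0.22 when untreated control replicate 1 was left out. At this depth the intervals of IFNE reached past 2-fold higher in each comparison.

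IFNK, known from keratinocytes, had 4, 12 and 1 counts in untreated control replicates 1 to 3, 0, 1 and 6 with reagent only and 0, 7 and 3 with DPPA3 mRNA. Its 34 reads were spread over 7 libraries, with the most in the untreated control group. The mean was 0.68 ± 0.60 CPM in untreated controls, 0.19 ± 0.25 CPM with reagent only and 0.30 ± 0.32 CPM with DPPA3 mRNA (SD, n = 3), close to the limit that a count of 0 allows (3 counts, or 0.226 to 0.746 CPM per library). Exact permutation tests (two-sided) gave p = 0.7 between DPPA3 mRNA and reagent only, 0.4 between DPPA3 mRNA and the untreated controls and 0.2 between reagent only and the untreated controls, with adjusted p of 0.6 to 0.7 over the 3 tests. In RefSeq's assembly ARS-UCD2.0 IFNK lies inside the span of MOB3B, a gene with 33 to 137 counts per library here. The sources used here do not say if counting used strand, and reads of MOB3B and IFNK cannot be told apart.

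**Figure D3:**
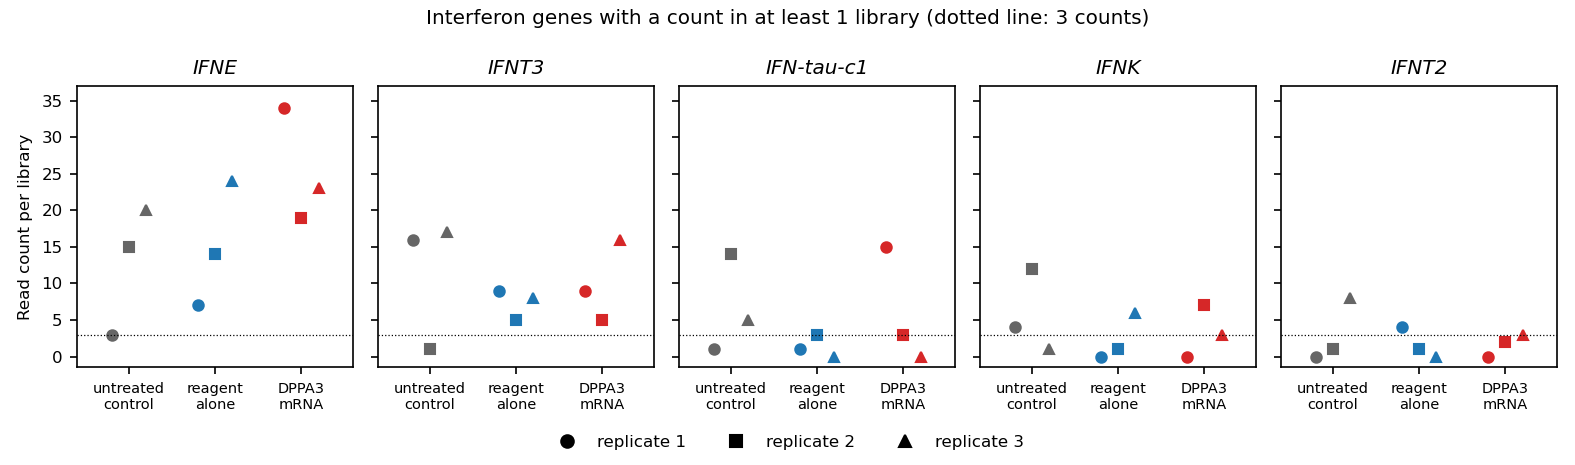
Read counts per library of the 5 interferon genes with any count, by group and replicate number; the dotted line marks 3 counts, the limit that a count of 0 allows. IFNE reaches 34 counts in DPPA3 mRNA replicate 1, and the other genes stay at 17 or below.

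Interferon genes were sought with a list of 27 symbols, not all of them in the table, so genes annotated under other symbols may have been missed. Of the other 15 interferon genes found by symbol, 12 had 0 counts in all 9 libraries. They were IFNB1 and IFNB3, the alpha interferon genes IFNAA, IFNAC, IFNAD, IFNAG, IFNAH and IFNA16, IFNW1, IFN-TAU, IFNG and the type III gene IFNL3. A count of 0 allows up to 0.0836 CPM over the 3 DPPA3 mRNA libraries together (3 of their 35895547 counts, unscaled; counting error only). The remaining 3 were interferon tau genes: IFNT3 had 86 counts over all libraries, IFN-tau-c1 42 and IFNT2 19. Their reads were in each group, with 34, 22 and 30 counts of IFNT3 in the untreated control, reagent only and DPPA3 mRNA groups. Reads of these near-identical copies may be split between them or with other interferon genes. IFNT3 had enough reads to be tested and was not called (log2 fold change -0.23 for DPPA3 mRNA against reagent only, edgeR adjusted p 0.9998).

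Downstream of the receptors, some genes that interferon itself is known to induce were higher on average with DPPA3 mRNA, without a call. Of 11 tested signal transducers (among them IRF9, IRF1, JAK2 and JAK3) 0 were called in any comparison. For DPPA3 mRNA against reagent only 3 had an unadjusted p under 0.05, all higher, beside 1.67% of all tested genes. They were IRF9 (log2 fold change 1.17, edgeR adjusted p 0.9998), IRF1 (0.82) and STAT2. IRF9, the DNA-binding part of the complex that switches on interferon-stimulated genes, stood at 37.5, 104 and 61.4 CPM in the DPPA3 mRNA libraries and at 26.9, 24.8 and 37.9 CPM in the reagent-only libraries, each in replicate order. Replicate 2 was the high DPPA3 mRNA library for IRF9, while JAK1 was lowest there among the transfected libraries.

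Among 17 inhibitors of the pathway 0 were called and USP18 alone had an unadjusted p under 0.05 for DPPA3 mRNA against reagent only (log2 fold change 3.02, edgeR adjusted p 0.9998). USP18, an interferon-induced protein that binds IFNAR2 and dampens its signal, stood at 6.33, 71.1 and 8.22 CPM in DPPA3 mRNA replicates 1 to 3 and 1.74, 2.69 and 5.43 CPM in reagent-only replicates 1 to 3. Of 11 tested receptors that share IL10RB, JAK1 or TYK2, such as OSMR and IL27RA, 0 were called and 0 had an unadjusted p under 0.05 in this comparison, with a median log2 fold change of -0.05. Of 20 tested genes that sense RNA or DNA or induce interferon genes, 0 were called. An unadjusted p under 0.05 was found for 8, all higher (median 0.26), beside 1.67% of all tested genes in this comparison. Without DPPA3 mRNA replicate 2 that count was 1, beside 1.7% of all tested genes. Without reagent-only replicate 2 it was 5, beside 1.51%. The largest of these differences by p was that of DHX58, an interferon-induced RNA helicase (log2 fold change 2.33, edgeR adjusted p 0.62). IFIH1 and DDX58, which encode the RNA sensors MDA5 and RIG-I, had values of 2.19 and 2.07. These differences rested largely on DPPA3 mRNA replicate 2, where IFIH1 stood at 89.5 CPM (8.13 and 18.6 CPM in replicates 1 and 3) and DDX58 at 309 CPM (30.4 and 86.2 CPM). Without that library the log2 fold change was 0.66 for IFIH1, 0.79 for DDX58, 1.46 for DHX58, 1.08 for USP18 and 0.72 for IRF9. DESeq2 called DHX58, and the edgeR fit with no filter on low counts called 6 of this list as well as IRF9 and USP18. Over all genes, too, both settings made more calls than the main fit, with the numbers given further below. At an unadjusted p under 0.05, DPPA3 mRNA gave 5 of 11 transducers and 1 of 17 inhibitors higher over the untreated controls. The counts were 0 of 11 receptors and 6 of 20 sensing genes, with none lower in any list and 0 called. Of all tested genes 3.91% had such a p there. Without DPPA3 mRNA replicate 2 only 1 transducer and 1 sensing gene were left there, and 2 transducers in the comparison with reagent only. With that library left out, such a p was found for 1.31% of all tested genes there and for 1.7% against reagent only. Reagent only over the untreated controls gave 0, 2, 1 and 0 higher, none lower and 0 called, where 10.2% of all tested genes had such a p. These lists, too, were drawn up with earlier results of these data known.

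**Figure D4:**
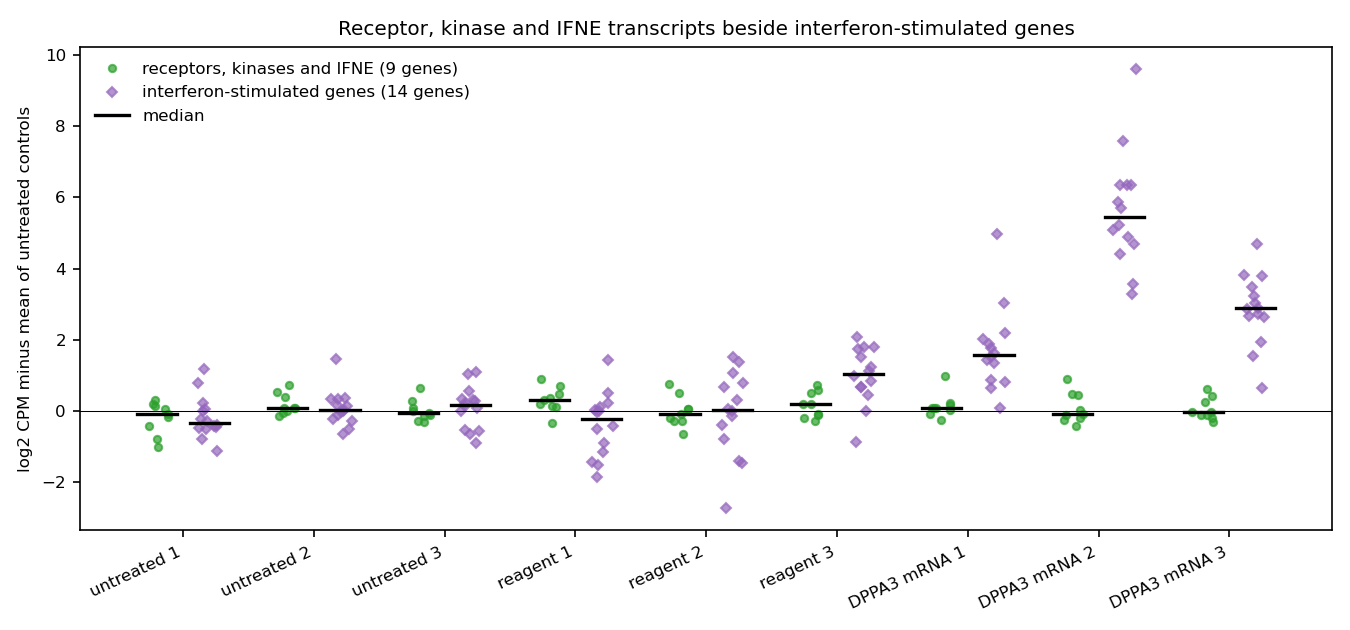
Each gene's log2 CPM minus its mean over the 3 untreated controls, by library, for the 9 receptor, kinase and IFNE transcripts (circles) and 14 interferon-stimulated genes (diamonds); bars are medians. The median of the circles stays between -0.09 and 0.32, while that of the diamonds reaches 5.46 in DPPA3 mRNA replicate 2.

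The levels of the receptor and kinase transcripts were set beside those of 14 tested interferon-stimulated genes, among them ISG15, MX1 and IFI6. Relative to the mean of the untreated controls, the median of these genes stood 1.57, 5.46 and 2.88 log2 units higher in DPPA3 mRNA replicates 1 to 3. In the same libraries the median of the 9 receptor, kinase and IFNE transcripts stood at 0.08, -0.09 and -0.03, with single transcripts on both sides of 0. In reagent-only replicates 1 to 3 the interferon-stimulated genes stood at -0.23, 0.03 and 1.04, and the 9 transcripts at 0.32, -0.08 and 0.20. So the library with the highest interferon-stimulated genes, DPPA3 mRNA replicate 2, held receptor and kinase levels inside the range of the other libraries, with the exception of IFNGR1, which was highest there at 19.5 CPM. Between DPPA3 mRNA and reagent only all 14 interferon-stimulated genes had an unadjusted p under 0.05, beside 1.67% of all tested genes. Of the 14, 0 were called by edgeR. Their median log2 fold change was 3.65, and 1.90 without DPPA3 mRNA replicate 2. With no filter on low counts 15 of 16 were called, and without DPPA3 mRNA replicate 1 the count was 8 of 15. Both settings also raised the number of calls over all genes, as given further below. Against untreated control 1 of them, IFITM1, was called (edgeR adjusted p 0.037), where 0.0134% of all tested genes were called. The call was lost with 6 of the 9 libraries left out in turn (adjusted p 0.0051 to 0.26). It was also lost when the DPPA3 gene was left out of the library sizes and the test. The number called was 0 without DPPA3 mRNA replicate 2 and 11 without DPPA3 mRNA replicate 1. More genes of the whole table, too, were called without DPPA3 mRNA replicate 1. These interferon-stimulated genes are known to vary together, and their higher level in these libraries was known when the list was drawn up, so it is shown here as background to the receptor levels.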

How the data were processed

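The authors deposited 1 table of raw read counts per gene symbol for 9 libraries. Per the labels' protocols, DNase-treated TRIzol RNA went into IDT xGen libraries. Trimmomatic, HISAT2, HTSeq and edgeR are the tools in the submitters' processing notes. Tool roles and versions, genome build, annotation and strand setting: not given in the sources used here. Gene symbols were matched to a RefSeq table (ARS-UCD2.0; 80.1% of 30641 symbols and all 10 genes examined), used for names and neighbours only. Transcript lengths were not used here, so levels of the genes examined are compared between libraries and not between genes. The marker levels set beside each other above are not scaled for length.

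All counts were fitted together with edgeR 4.0.16 in R 4.3.3 (filterByExpr, 14874 genes; TMM; glmQLFit and glmQLFTest; group as the only term; Benjamini-Hochberg over all genes, threshold 0.05). CPM uses TMM-scaled library sizes. Standard errors were taken as log2 fold change over the root of F. Log2 CPM used a prior count of 2, and count ratios added 0.5 to each gene. The genes examined and the gene lists were chosen with earlier results of these data known. Named were all 10 genes, interferon genes with counts, and up to 3 genes of each list with the smallest p (1 of them is not reported here), while STAT2 and single libraries were named after their values were seen. Alternatives were DESeq2 1.42.0 (size factors, and the Wald test), no filter, a fit of the 6 libraries compared alone, a block for replicate number, DPPA3 left out, and each library left out. After seeing the data, 2 more were added: limma 3.58.1 voom with quality weights, and the block without untreated control replicate 1. Deviations from group means correlated between equal replicate numbers at 0.34, 0.32 and 0.13 for DPPA3 mRNA with untreated control. All passed the limit of 0.1 set here, the last of them narrowly. They hint that equal numbers belong together in those 2 groups, which no sample label states. The p-values and intervals of the main fit leave such pairing out. With the replicate block, 9.35% of all tested genes had an unadjusted p under 0.05 between these 2 groups, against 3.91% without it. Among the 9 tested genes that count was 0 in both fits. Replicates differed by more than sampling noise (chi-square per degree of freedom at least 13.7). The scripts were tested on simulated data.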

Additional observations from a re-analysis of the deposited data

How the results depend on the processing

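None of the 9 tested genes was called under any of the 17 alternatives in any comparison, and the smallest adjusted p was 0.065 (IFNGR1, reagent only against untreated control, limma voom). Of 459 recomputed values 429 kept their direction and 30 changed sign, and the cause was not tested. With the replicate block, which changed no call among these genes, IFNAR2 for DPPA3 mRNA against untreated control became -0.013 on the log2 scale, and 2, 7 and 0 of all genes were called in the 3 comparisons, in the order used above. That value was -0.0021 with DESeq2 size factors, -0.0024 with the DESeq2 Wald test, -0.098 with voom and -0.22 with the block when untreated control replicate 1 was left out. Under that last setting IFNGR2 became -0.11 for DPPA3 mRNA and -0.0076 for reagent only against untreated control, and IL10RB 0.012 and IFNE -0.23 for reagent only. With voom IFNLR1 became 0.071 and JAK1 0.021 for DPPA3 mRNA against untreated control, and IL10RB 0.020 and IFNE -0.20 for reagent only. Leaving out single libraries changed signs as follows. For DPPA3 mRNA against reagent only the log2 fold changes ranged from -0.19 to 0.21 for IFNLR1, -0.24 to 0.023 for IFNGR2 and -0.030 to 0.16 for JAK1. For DPPA3 mRNA against untreated control they ranged from -0.074 to 0.48 for IFNAR1, -0.063 to 0.057 for IFNAR2, -0.062 to 0.11 for IFNGR2 and -0.061 to 0.028 for JAK1. For reagent only against untreated control they ranged from -0.11 to 0.094 for IL10RB, -0.13 to 0.57 for IFNE, -0.38 to 0.020 for IFNLR1 and -0.17 to 0.020 for JAK1. Dropping the filter led to 66, 69 and 18 calls over all genes in the 3 comparisons, DESeq2 to 9, 10 and 2, and the block on 8 libraries (untreated control replicate 1 left out) to 19, 33 and 6. Leaving the DPPA3 gene out of the library sizes and the test made the first 2 counts 0 and 0. The voom fit called 4 against untreated control and 2 for reagent only. Each library left out in turn gave between 1 and 20, 1 and 26 and 0 and 1 calls, the highest of the first 2 without DPPA3 mRNA replicate 1. Depth limits IFNE and IFNK most, with at most 34 and 12 counts in a library. Between equal replicate numbers the reagent-only group correlated at 0.14, 0.12 and 0.086 with DPPA3 mRNA. With the untreated controls it correlated at 0.15, 0.14 and 0.093. Not all of these passed 0.1, and the block was an alternative in all 3 comparisons.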

Other observations

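In RefSeq's assembly ARS-UCD2.0 the protein-coding genes IFNGR2, IFNAR1, IL10RB and IFNAR2 follow each other in this order, with no other protein-coding gene between them. Reagent-only replicate 1 was the highest library for IFNAR2 and IFNGR2 but not for IFNAR1 or IL10RB, and untreated control replicate 1 was the lowest for IFNAR1 and IFNAR2 and the highest for IL10RB. Likeness was measured as the root mean square difference of log2 CPM profiles, each centred on its mean, over the 9 libraries and among 11046 candidate genes with a mean of at least 5 CPM. The closest gene was PHIP to IFNAR1 (difference 0.085 log2 units), FN3KRP to IFNAR2 (0.071), INPP5F to IFNGR1 (0.11) and UFD1 to IFNGR2 (0.066). For the other genes it was OSER1 to IFNLR1 (0.12), MEF2D to IL10RB (0.085), KIF13A to JAK1 (0.048) and ARHGEF5 to TYK2 (0.043). Among the 8 receptor and kinase genes themselves, the nearest to IFNAR2 was IFNGR2 (0.19, rank 52 of all candidates), and the nearest to IFNGR2 and to IFNLR1 was JAK1 (0.12, rank 54, and 0.18, rank 72). The nearest to IFNAR1 was IFNGR1 (0.33, rank 2733), and for the other 4 genes the nearest had ranks from 263 to 1819. These are descriptions of 9 libraries that share depth and scaling.

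Apart from untreated control replicate 1, the libraries of reagent-only replicates 1 and 2 each held the highest or lowest value of 4 of the 9 tested genes, against 29.1% and 22.3% of all tested genes. In reagent-only replicate 1 IFNAR2, IFNGR2 and JAK1 were highest and TYK2 lowest, and in reagent-only replicate 2 IFNAR1 was highest and IFNGR2, IFNLR1 and JAK1 lowest. That IFNGR2 and JAK1 were highest in one reagent-only library and lowest in another was seen after the values were examined and was not tested.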
